A study of Mus musculus with 15 samples.

Results

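The genes described here encode the receptors that work beside the frizzled proteins at the surface of a Wnt-responsive cell, and the R-spondin system that tunes them. They are the co-receptors *Lrp5* and *Lrp6*, the receptors *Ror1*, *Ror2* and *Ryk*, the R-spondin receptors *Lgr4*, *Lgr5* and *Lgr6*, and the ligands *Rspo2* and *Rspo3*. They were chosen by gene symbol, as 10 of the 56832 genes in the count table, and all 10 had enough reads to be tested. The cells were cultured bone marrow mesenchymal stromal cells (MSCs), the adherent stromal cells that can form bone and fat, from 16 week old mice. TauT+/+ animals were the controls, and TauT-/- animals carried a global knockout of *Slc6a6*, which encodes the taurine transporter TauT, on a C57BL/6J background. Being global, the deletion was present in every cell type of the animal and throughout its life. The cultures were depleted of cells bearing CD45, Ter119 or CD31. The 15 libraries were labelled as 4 male and 3 female TauT+/+ samples and 4 male and 4 female TauT-/- samples, and are named below by genotype, sex label and number.

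Canonical Wnt signaling starts when a Wnt ligand joins a frizzled receptor to LRP5 or LRP6, whose phosphorylated tail holds the β-catenin destruction complex at the membrane. ROR1, ROR2 and RYK bind Wnt ligands such as WNT5A and are best known for signals that do not use β-catenin. R-spondins, bound to LGR4, LGR5 or LGR6, keep the ubiquitin ligases ZNRF3 and RNF43 from clearing frizzled and LRP6 from the membrane. In bone, loss of LRP5 function lowers bone mass, and LRP6 also contributes to bone formation.

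Some features of the libraries bear on every value. The libraries labelled male held 69764291 to 101575071 counts and those labelled female 12761107 to 20781070, so depth and sex label cannot be told apart. The knocked-out gene *Slc6a6* had 592 to 2591 CPM in TauT+/+ and 401 to 1521 CPM in TauT-/- libraries, so the genotypes overlapped. CPM are read counts scaled to a common library size. On the log2 scale *Slc6a6* differed by −0.97, with a standard error (SE) of 0.36 and an adjusted p of 0.125 by edgeR, the count test used throughout at a threshold of 0.05 on the adjusted p. In 3 libraries the expression of sex-linked genes contradicted the label, namely TauT+/+ male 1, TauT-/- male 1 and TauT+/+ female 3. TauT-/- male 1 and TauT-/- female 1 were nearly identical, with a spread of log2 ratios of 0.0991 over 9518 genes, and so were TauT+/+ male 1 and TauT+/+ female 1, with 0.110. Counting error alone would give 0.0558 and 0.0586, and the next closest of the 105 pairs had 0.267. Further libraries made from the same RNA or culture would also differ by more than counting error, so whether each pair is 2 samples is not known. The pairs were kept as labelled, n and p in the fit to 15 libraries rest on that, and values are also given with 13 libraries, 1 of each such pair being kept. Summed macrophage markers (18 genes) had 1511 to 10405 CPM in TauT+/+ and 7503 to 25845 CPM in TauT-/- libraries, and 17 of the 18 had a log2 fold change above 0, of which edgeR called *Cd68* and *Ctss* higher (13 higher at an unadjusted p under 0.05) and DESeq2 called 9 higher. Of 5 pan-haematopoietic markers, all above 0, edgeR called 0 (5 at an unadjusted p under 0.05) and DESeq2 called 1 higher, and their sum was 179 to 1149 CPM in TauT+/+ and 850 to 2507 CPM in TauT-/- libraries. Of 14 mesenchymal stromal markers, 10 were below 0, with 0 called by edgeR (4 lower and 1 higher at an unadjusted p under 0.05) and 2 called lower by DESeq2, and the sum ranged from 12238 to 36849 CPM in TauT+/+ and from 4059 to 22527 CPM in TauT-/- libraries. Among these, *Cxcl12* had a mean of 12120 CPM in TauT+/+ and *Lepr*, a defining receptor of marrow stroma, had 0.993 CPM. The 8 endothelial markers summed to 9.53 to 27.6 CPM in TauT+/+ and 10.9 to 230.0 CPM in TauT-/- libraries, with *Pecam1* and *Cdh5* at 1.31 and 0.354 CPM in TauT+/+, while *Kdr*, *Flt1* and *Vwf* had means of 2.90, 4.81 and 7.91 CPM in TauT+/+ and 16.1, 39.01 and 21.5 CPM in TauT-/-. Of the 6 endothelial markers tested, edgeR called 0 (3 higher at an unadjusted p under 0.05) and DESeq2 called 2 higher. The 8 osteoblast markers summed to 11716 to 21251 CPM in TauT+/+ and 5545 to 32134 CPM in TauT-/- libraries, most of it *Col1a1* and *Spp1*, while the late markers *Bglap* and *Dmp1* averaged 0.122 and 0.0873 CPM in TauT+/+. Of the 6 osteoblast markers tested, edgeR called 0 (1 higher and 1 lower at an unadjusted p under 0.05, *Spp1* and *Runx2*) and DESeq2 called 1 higher. Over all 17204 genes tested, 2236 were lower and 1830 higher in TauT-/- at an unadjusted p under 0.05 by edgeR. In bulk RNA, fewer cells of a type and less RNA per cell cannot be told apart.

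*Lrp6* was the 1 gene of the 10 that passed the test, and it was lower in TauT-/- MSCs. The mean fell from 213 ± 85.0 CPM (SD, n = 7 libraries) in TauT+/+ to 105 ± 19.1 CPM (SD, n = 8) in TauT-/-, a 2.02-fold decrease. Of all 17204 genes tested, edgeR called 0.75% lower and 0.546% higher in TauT-/-, and DESeq2 called 6.31% lower and 5.28% higher of the 18045 to which it gave an adjusted p. None of the 10 was called higher by edgeR, and DESeq2 called *Lgr5* higher. At an unadjusted p under 0.05 by edgeR, 2 of the 10 were lower (*Lrp6* and *Rspo3*) and 1 was higher (*Lgr5*). The 10 genes had a median log2 fold change of −0.22, with 7 below and 3 above 0, against a median of −0.02 over all genes tested, with 8888 below and 8316 above 0.

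**Figure D1:**
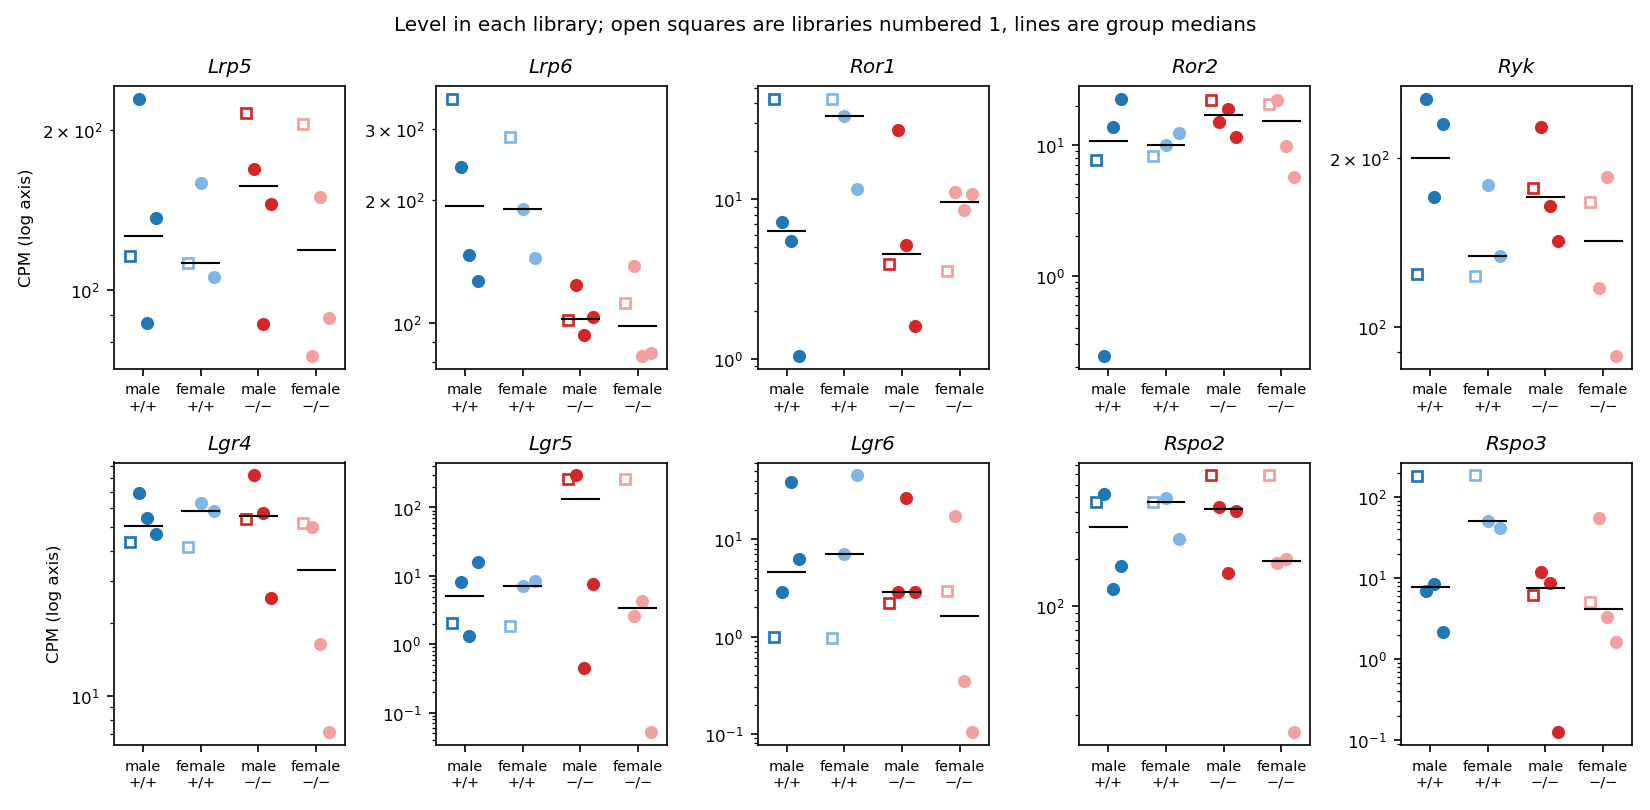
CPM of each gene in each library on a log axis, by sex label and genotype, with lines at the group medians and open squares for the libraries numbered 1, which form the near-identical pairs. *Lrp6* sat at or below 138 CPM in all 8 TauT-/- libraries and at or above 127 CPM in all 7 TauT+/+ libraries, while the other genes overlapped widely between the genotypes.

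The co-receptors *Lrp5* and *Lrp6* encode closely related single-pass receptors. *Lrp6* lies on chromosome 6 of the mouse genome GRCm39 (chr6:134423439-134544212, minus strand). *Lrp6* had 355, 242, 147 and 127 CPM in TauT+/+ male libraries 1 to 4 and 286, 191 and 144 CPM in TauT+/+ female libraries 1 to 3. *Lrp6* had 101, 124, 93.5 and 103 CPM in TauT-/- male libraries 1 to 4 and 112, 138, 83.1 and 84.4 CPM in TauT-/- female libraries 1 to 4. Every TauT-/- library was below every TauT+/+ library of its own sex label, and over both labels the genotypes overlapped because TauT-/- female 2 exceeded TauT+/+ male 4. Among all genes tested, 2.12% had every TauT-/- library below every TauT+/+ library under the male label and 8.2% under the female label. Under both labels at once, 129 of the 17204 genes did so, and the near-identical pairs span the labels. The male gap was narrow, 127 against 124 CPM, and with scaling factors taken over all genes it closed, at 125.7 against 125.8 CPM. The spread was also unequal, since the TauT+/+ libraries covered 127 to 355 CPM and the TauT-/- libraries 83.1 to 138 CPM.

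The log2 fold change of *Lrp6* was −1.02 (SE 0.22, adjusted p = 0.0400 by edgeR). It was −1.03 (SE 0.32) in male-labelled and −0.97 (SE 0.28) in female-labelled libraries alone, with edgeR adjusted p = 0.631 and 0.274. With 13 libraries it was −0.85 (edgeR adjusted p = 0.0820) with the female-labelled library of each near-identical pair and −0.90 (edgeR adjusted p = 0.111) with the male-labelled one. TauT+/+ male 1 and TauT+/+ female 1, which had the highest *Lrp6* levels, belong to 1 of these pairs. With the mean macrophage marker level in the model the log2 fold change was −1.03 and the edgeR adjusted p = 0.235. The call was also lost when any of 10 libraries was left out, with an edgeR adjusted p of up to 0.113 without TauT+/+ female 1, and it held without TauT-/- female 1, TauT-/- female 2, TauT-/- male 2, TauT+/+ male 3 or TauT+/+ male 4. The direction was the same in each of these fits. The part of the macrophage and stromal marker levels in this difference was not tested beyond that covariate.

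*Lrp5* lies on chromosome 19 (chr19:3634821-3736643, minus strand). *Lrp5* had 116, 229, 86.9 and 137 CPM in TauT+/+ male libraries 1 to 4 and 113, 159 and 106 CPM in TauT+/+ female libraries 1 to 3. *Lrp5* had 216, 169, 86.4 and 145 CPM in TauT-/- male libraries 1 to 4 and 206, 75.4, 149.7 and 88.7 CPM in TauT-/- female libraries 1 to 4. The genotypes overlapped across nearly their whole range. Its means were 135 ± 47.4 CPM (SD, n = 7) and 142 ± 54.4 CPM (SD, n = 8), with a log2 fold change of 0.08 (SE 0.26, adjusted p = 0.881 by edgeR). The sign was not stable, since the estimate was −0.07 and −0.04 in the fits to 13 libraries.

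Divided by the length of their exons, the co-receptors had equal means in TauT+/+ MSCs, with 13.8 ± 5.51 CPM per kb for *Lrp6* and 13.8 ± 4.82 CPM per kb for *Lrp5* (SD, n = 7). In TauT-/- MSCs the levels were 6.80 ± 1.24 CPM per kb for *Lrp6* and 14.4 ± 5.53 CPM per kb for *Lrp5* (SD, n = 8). The per-length ratio of *Lrp6* to *Lrp5*, with 0.5 CPM added to each, was 1.94, 0.671, 1.07 and 0.588 in TauT+/+ male libraries and 1.61, 0.762 and 0.865 in TauT+/+ female libraries. In TauT-/- libraries the ratio was 0.30, 0.468, 0.689 and 0.454 under the male label and 0.347, 1.16, 0.354 and 0.606 under the female label. *Lrp6* thus exceeded *Lrp5* in 3 of 7 TauT+/+ libraries and in 1 of 8 TauT-/- libraries. TauT+/+ male 1 and TauT+/+ female 1, which had the highest ratios, are a near-identical pair. On the log2 scale the ratio averaged −0.03 ± 0.65 in TauT+/+ and −1.0 ± 0.64 in TauT-/-, a difference of −0.98. This difference ranged from −1.15 to −0.81 when each library was left out in turn. It shrank to −0.71 with 13 libraries, the female-labelled library of each near-identical pair being kept. *Lrp6* made up 37.0% to 66.1% (median 46.4%) of the summed per-length level of the pair in TauT+/+ and 23.0% to 53.8% (median 31.5%) in TauT-/-. The ratio was not tested.

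**Figure D2:**
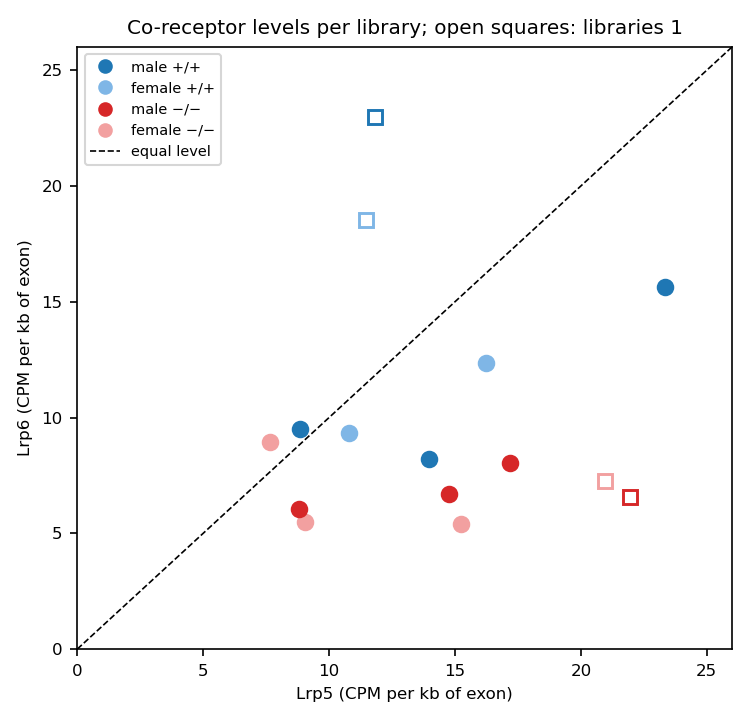
*Lrp6* against *Lrp5* in each library, both in CPM per kb of exon, with a dashed line where the levels are equal and open squares for the libraries numbered 1. The points above the line are 3 TauT+/+ libraries and TauT-/- female 2. The TauT-/- libraries lie in a low band of *Lrp6*, up to 8.95 CPM per kb, across most of the range of *Lrp5*. TauT+/+ male 4, at 8.20 CPM per kb, lies in the same band.

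*Ror1*, *Ror2* and *Ryk* encode receptors with kinase-like intracellular domains, and 0 of the 3 passed the test with edgeR or DESeq2. *Ryk*, an atypical Wnt receptor (chr9:102712002-102785504, plus strand), was the most even of them. *Ryk* had 124, 256, 170.4 and 231 CPM in TauT+/+ male libraries 1 to 4 and 123, 179 and 134 CPM in TauT+/+ female libraries 1 to 3. *Ryk* had 177, 228, 164 and 143 CPM in TauT-/- male libraries 1 to 4 and 167, 117, 185 and 88.7 CPM in TauT-/- female libraries 1 to 4. The genotypes overlapped, at 174 ± 52.5 and 159 ± 42.8 CPM (SD, n = 7 and 8), with a log2 fold change of −0.10 (SE 0.19, adjusted p = 0.782 by edgeR).

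*Ror1* (chr4:99952988-100301990, plus strand) encodes a receptor for WNT5A that is prominent in the embryo. *Ror1* had 42.5, 7.17, 5.46 and 1.05 CPM in TauT+/+ male libraries 1 to 4 and 42.6, 33.3 and 11.6 CPM in TauT+/+ female libraries 1 to 3. *Ror1* had 3.92, 27.3, 5.15 and 1.61 CPM in TauT-/- male libraries 1 to 4 and 3.56, 11.2, 8.61 and 10.7 CPM in TauT-/- female libraries 1 to 4. Under the female label the genotypes did not overlap, with 11.6 CPM as the lowest TauT+/+ and 11.2 CPM as the highest TauT-/- value, while under the male label they overlapped fully. Of all genes tested 8.2% were separated in this way under the female label, so the gap is no result about *Ror1*. The log2 fold change was −1.12 (SE 0.71, adjusted p = 0.355 by edgeR) over all libraries, −0.54 (SE 1.16) in male-labelled and −1.74 (SE 0.52) in female-labelled ones. It was −0.40 and −0.75 in the fits to 13 libraries, and the near-identical TauT+/+ pair held the highest values.

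*Ror2* (chr13:53263348-53440247, minus strand) encodes its closest relative, which is needed for skeletal patterning. *Ror2* had 7.70, 0.245, 13.7 and 22.6 CPM in TauT+/+ male libraries 1 to 4 and 8.22, 10.0 and 12.4 CPM in TauT+/+ female libraries 1 to 3. *Ror2* had 22.1, 14.9, 18.9 and 11.5 CPM in TauT-/- male libraries 1 to 4 and 20.6, 22.1, 9.93 and 5.73 CPM in TauT-/- female libraries 1 to 4. The highest TauT+/+ library was at the level of the highest TauT-/- libraries, and TauT+/+ male 2 stood far below all others. The means were 10.7 ± 6.82 and 15.7 ± 6.18 CPM (SD, n = 7 and 8), with a log2 fold change of 0.57 (SE 0.56, adjusted p = 0.561 by edgeR). The per-length ratio of *Ror2* to *Ror1*, with 0.5 CPM added to each, ran from 0.121 to 18.6 (median 0.389) in TauT+/+ and from 0.693 to 7.11 (median 3.35) in TauT-/-. On the log2 scale it averaged −0.32 ± 2.55 in TauT+/+ and 1.38 ± 1.42 in TauT-/-, a difference of 1.70 that is smaller than the spread of the TauT+/+ libraries. This ratio was not tested.

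Of the R-spondin receptors edgeR called 0 of 3, with *Lgr5* at an unadjusted p of 0.0148. *Lgr4* (chr2:109747839-109844609, plus strand), the broadly expressed receptor of the 3, was present in every library. *Lgr4* had 43.5, 69.2, 54.7 and 47.0 CPM in TauT+/+ male libraries 1 to 4 and 41.5, 63.0 and 58.4 CPM in TauT+/+ female libraries 1 to 3. *Lgr4* had 54.1, 82.2, 57.3 and 25.6 CPM in TauT-/- male libraries 1 to 4 and 51.9, 50.0, 16.5 and 7.09 CPM in TauT-/- female libraries 1 to 4. The TauT+/+ libraries were close together, whereas TauT-/- male 4 and TauT-/- female 3 and 4 fell outside the TauT+/+ range on the low side and TauT-/- male 2 on the high side. The means were 53.9 ± 10.4 and 43.1 ± 24.7 CPM (SD, n = 7 and 8), and the log2 fold change of −0.35 (SE 0.37, adjusted p = 0.591 by edgeR) did not pass the test.

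*Lgr5* (chr10:115286216-115423685, minus strand), known as a stem cell marker in epithelia, was high in 3 TauT-/- libraries and low elsewhere. *Lgr5* had 2.05, 8.15, 1.33 and 16.2 CPM in TauT+/+ male libraries 1 to 4 and 1.84, 7.19 and 8.34 CPM in TauT+/+ female libraries 1 to 3. *Lgr5* had 257, 295, 0.458 and 7.64 CPM in TauT-/- male libraries 1 to 4 and 259, 2.64, 4.24 and 0.0521 CPM in TauT-/- female libraries 1 to 4, the last being 1 read. TauT-/- male 1 and female 1 are a near-identical pair, so the high level rests on this pair and TauT-/- male 2. The other 5 TauT-/- libraries lay at or below 7.64 CPM, inside or under the TauT+/+ range. The median was 7.19 CPM in TauT+/+ and 5.94 CPM in TauT-/-, while the means were 6.44 ± 5.29 and 103 ± 139 CPM (SD, n = 7 and 8). The log2 fold change of 3.97 (SE 1.43) did not pass the edgeR test (adjusted p = 0.121) and passed that of DESeq2 (log2 fold change 3.95, adjusted p = 0.0101). With 13 libraries it was 3.52 with the female-labelled library of each near-identical pair and 2.26 with the male-labelled one (edgeR adjusted p = 0.212 and 0.515).

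*Lgr6* (chr1:134911039-135033100, minus strand), another receptor for R-spondins, was low in most libraries. *Lgr6* had 0.990, 2.88, 38.7 and 6.25 CPM in TauT+/+ male libraries 1 to 4 and 0.977, 7.11 and 45.3 CPM in TauT+/+ female libraries 1 to 3. *Lgr6* had 2.19, 2.87, 26.5 and 2.85 CPM in TauT-/- male libraries 1 to 4 and 2.93, 17.5, 0.347 and 0.104 CPM in TauT-/- female libraries 1 to 4, the last being 2 reads. The highest level under each genotype and sex label was at least 17.5 CPM and came from a single library, so the genotypes overlapped. The log2 fold change was −1.09 (SE 1.06, adjusted p = 0.555 by edgeR), and it was −0.14 without TauT+/+ female 3, −0.33 without TauT+/+ male 3 and −2.0 without TauT-/- male 3.

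Per kb of exon, *Lgr4* made up 53.1% to 94.7% of the summed level of the 3 R-spondin receptors in TauT+/+ libraries and 21.4% to 98.0% in TauT-/- libraries. *Lgr5* made up 1.02% to 18.0% (median 5.50%) in TauT+/+ and 0.394% to 77.4% (median 15.9%) in TauT-/-. It was the main R-spondin receptor transcript in the 3 high TauT-/- libraries, at 76.8% and 71.5% in TauT-/- male 1 and 2 and 77.4% in TauT-/- female 1, and *Lgr4* was the main one in each of the other 12 libraries. On the log2 scale, with 0.5 CPM added, the per-length ratio of *Lgr5* to *Lgr4* averaged −3.82 ± 1.13 in TauT+/+ and −1.82 ± 3.17 in TauT-/-. The difference of 2.0 was smaller than the spread of the TauT-/- libraries and was not tested.

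The R-spondins are secreted proteins that need an LGR receptor or heparan sulfate to act on the cell. *Rspo2* (chr15:42877439-43034706, minus strand) had the highest mean per kb of exon of the 10 genes under both genotypes, and was the highest of them in 10 of the 15 libraries. *Rspo2* had 463, 520.0, 128 and 179.6 CPM in TauT+/+ male libraries 1 to 4 and 467, 494 and 268 CPM in TauT+/+ female libraries 1 to 3. *Rspo2* had 689, 433, 163 and 409 CPM in TauT-/- male libraries 1 to 4 and 690.2, 189.6, 199 and 15.4 CPM in TauT-/- female libraries 1 to 4. The genotypes overlapped, and TauT-/- female 4 was the lowest library by a wide margin. The means were 360 ± 164 and 349 ± 250 CPM (SD, n = 7 and 8), with a log2 fold change of −0.06 (SE 0.57, adjusted p = 0.962 by edgeR).

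*Rspo3* (chr10:29327285-29411876, minus strand) was high in the near-identical TauT+/+ pair. *Rspo3* had 182, 7.02, 8.53 and 2.14 CPM in TauT+/+ male libraries 1 to 4 and 186, 50.2 and 41.7 CPM in TauT+/+ female libraries 1 to 3. *Rspo3* had 6.15, 11.9, 8.74 and 0.125 CPM in TauT-/- male libraries 1 to 4 and 5.08, 55.8, 3.26 and 1.62 CPM in TauT-/- female libraries 1 to 4. Beside that pair, TauT+/+ female 2 and 3 and TauT-/- female 2 were raised, and the remaining 10 libraries were at or below 11.9 CPM under both genotypes. The means were 68.1 ± 81.0 and 11.6 ± 18.3 CPM (SD, n = 7 and 8), with a log2 fold change of −2.71 (SE 1.06). By edgeR the unadjusted p of *Rspo3* was 0.0223 and its adjusted p was 0.144, and DESeq2 left the gene without a p. The log2 fold change was −1.29 and −2.27 in the fits to 13 libraries and −1.24 without TauT+/+ male 1 (edgeR adjusted p = 0.487, 0.309 and 0.484). *Rspo3* made up 3.36% to 53.8% (median 22.9%) of the summed per-length level of the R-spondins in TauT+/+ and 0.0893% to 46.2% (median 5.99%) in TauT-/- libraries.

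**Figure D3:**
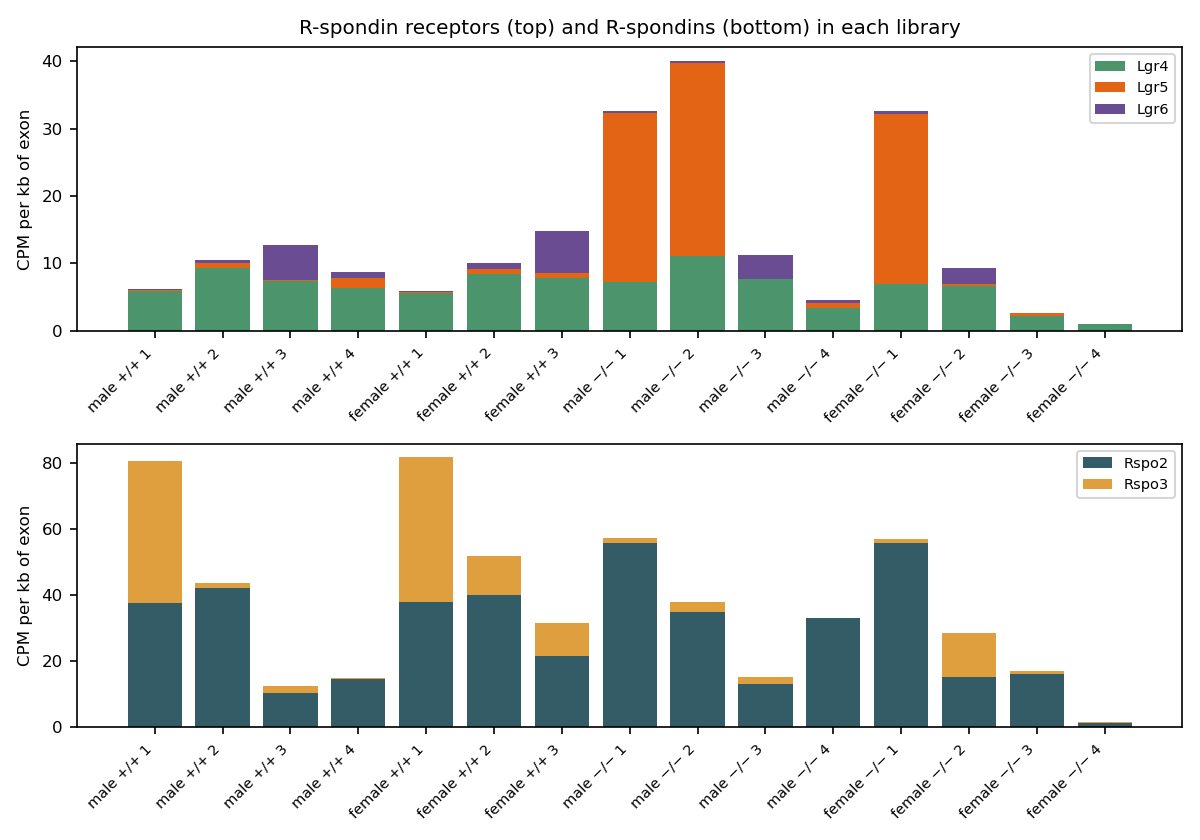
Stacked levels in CPM per kb of exon in each library, with *Lgr4*, *Lgr5* and *Lgr6* in the upper and *Rspo2* and *Rspo3* in the lower panel. *Lgr5* makes up most of the bar in TauT-/- male 1 and 2 and TauT-/- female 1, and *Rspo3* forms more than 50% of the bar in TauT+/+ male 1 and TauT+/+ female 1.

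Ordered by level per kb of exon in TauT+/+ MSCs, *Rspo2* came first at 29.1 ± 13.2 CPM per kb, followed by *Rspo3* (16.1 ± 19.2), *Lrp6* and *Lrp5*, *Ryk* (12.8 ± 3.86), *Lgr4* (7.24 ± 1.4), *Ror1* (3.54 ± 3.15), *Ror2* (2.31 ± 1.47), *Lgr6* (1.97 ± 2.56) and *Lgr5* (0.627 ± 0.516; all SD, n = 7). Neighbours in this order overlapped in their mean ± SD, except that *Lgr4* lay below *Ryk* without overlap. In TauT-/- MSCs *Rspo2* was again first at 28.2 ± 20.2 CPM per kb, with *Lrp5* and *Ryk* (11.7 ± 3.15) next, and *Lgr5* (10.1 ± 13.5) followed them through its 3 high libraries. After it came *Lrp6*, *Lgr4* (5.79 ± 3.33), *Ror2* (3.39 ± 1.33), *Rspo3* (2.74 ± 4.31), *Ror1* (1.56 ± 1.41) and *Lgr6* (0.932 ± 1.31; all SD, n = 8).

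The sex labels were compared for the size of the genotype effect, and 0 of the 10 genes differed by edgeR, with 0 at an unadjusted p under 0.05 and 0 called by DESeq2. Over all 17204 genes edgeR called 0 (0%), with 242 at an unadjusted p under 0.05, and DESeq2 called 2. Each near-identical pair spans the labels, which also differ in depth, and 3 libraries had sex-linked expression against theirs. A count of 0 therefore does not show equal effects in both sexes. *Lgr4* had log2 fold changes of 0.04 and −0.79 in male-labelled and female-labelled libraries, and *Rspo2* had 0.39 and −0.58, so both estimates changed sign between the labels, with standard errors of 0.73 and 1.15 on the differences.

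**Figure D4:**
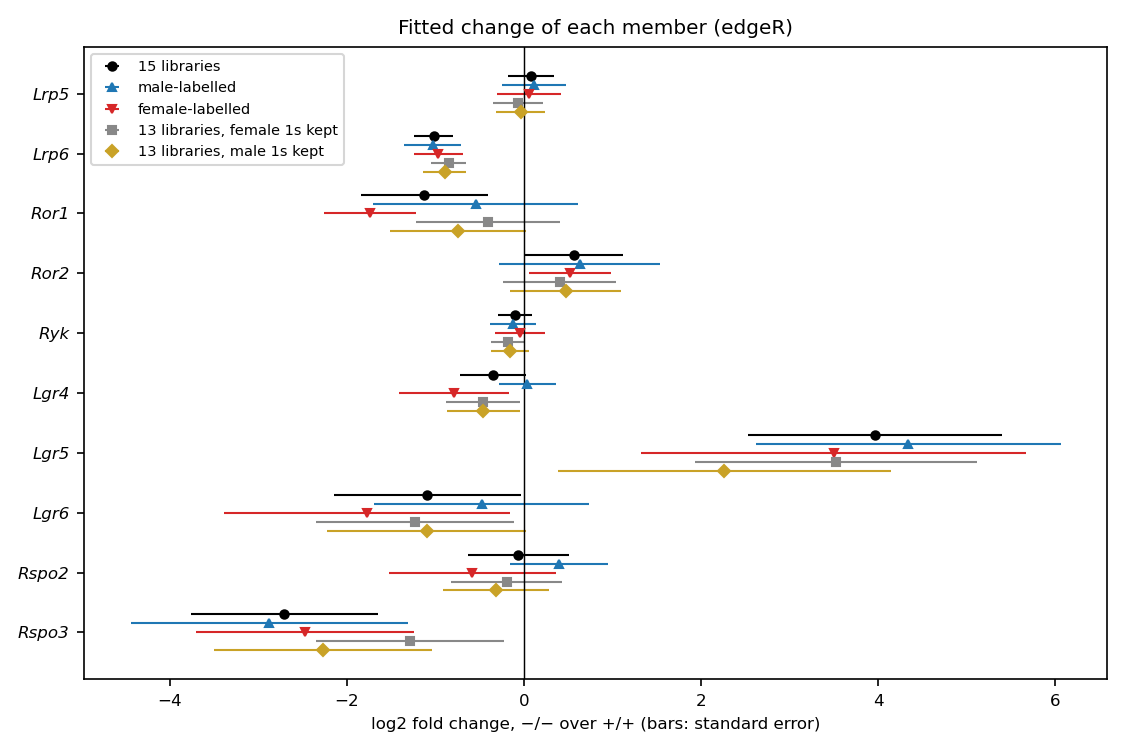
Log2 fold change of TauT-/- over TauT+/+ with its standard error for each gene, in all 15 libraries, in each sex label and in the fits to 13 libraries that keep 1 of each near-identical pair. *Lrp6* lies between −1.03 and −0.85 in all 5 fits with short bars, while *Lgr5* and *Rspo3* have larger estimates with standard errors above 1.

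The receptors and regulators that act with these genes were described from lists of 69 other Wnt pathway genes, of which 59 were tested. edgeR called 3 lower and 0 higher, DESeq2 called 9 lower and 2 higher, and the median log2 fold change was −0.22, with 41 below and 18 above 0. At an unadjusted p under 0.05, 13 were lower and 3 higher by edgeR, against 2236 lower and 1830 higher of all 17204 genes. Of the 59, edgeR called 0 in either fit to 13 libraries, and 0 when TauT-/- female 3, any TauT+/+ female library, TauT-/- male 1 or 4 or TauT+/+ male 2 was left out. Over all genes edgeR called 0 lower in both fits to 13 libraries and 4 to 24 lower in those 7 fits, so few or no calls remained over all genes either. Frizzled receptors, the partners of LRP5 and LRP6, were below 0 in 9 of 9 tested cases, from −2.62 to −0.04 (median −0.82). Of these, edgeR called 2, with 4 lower at an unadjusted p under 0.05. *Fzd5* fell from 247 ± 138 to 55.5 ± 26.1 CPM (log2 fold change −2.18, SE 0.41, adjusted p = 0.0293 by edgeR). *Fzd1* fell from 145 ± 53.7 to 61.7 ± 24.4 CPM (log2 fold change −1.24, SE 0.28, adjusted p = 0.0459 by edgeR). *Fzd4*, the receptor for norrin, had 69.6 ± 40.1 and 12.4 ± 18.0 CPM and a log2 fold change of −2.62. It did not pass the edgeR test (adjusted p = 0.0692), and DESeq2 called it lower (adjusted p = 0.00264).

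Of 8 feedback targets of the pathway, 7 were tested, with 5 below and 2 above 0 (median −0.42). Of these, edgeR called 1 lower (1 lower and 1 higher at an unadjusted p under 0.05) and DESeq2 called 1 lower and 1 higher. *Nkd1*, a β-catenin target that dampens the signal, fell from 23.9 ± 21.2 to 2.39 ± 1.73 CPM (log2 fold change −3.28, SE 0.75, adjusted p = 0.0475 by edgeR). The genotypes overlapped, since its lowest TauT+/+ value was 2.72 CPM and its highest TauT-/- value 5.61 CPM. *Myc*, a growth regulator, had 51.6 ± 18.5 and 95.8 ± 44.9 CPM (log2 fold change 0.88, edgeR adjusted p = 0.114), and DESeq2 called it higher. Among the 12 planar polarity and non-canonical partners edgeR called 0 (4 lower and 1 higher at an unadjusted p under 0.05) and DESeq2 called 4 lower, with 7 below and 5 above 0 (median −0.36). The largest increases there were those of the atypical cadherins *Celsr2* (log2 fold change 1.02, edgeR adjusted p = 0.174) and *Celsr3* (0.93, edgeR adjusted p = 0.332). The 15 tested surface regulators included the LRP4 receptor, DKK2 and DKK3 of the Dickkopf family, and ZNRF3 and RNF43. Of these 15, edgeR called 0 (4 lower at an unadjusted p under 0.05) and DESeq2 called 1 lower (median −0.22). Of 16 genes of intracellular transduction edgeR called 0 (1 higher at an unadjusted p under 0.05) and DESeq2 called 1 higher (median −0.04).

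**Figure D5:**
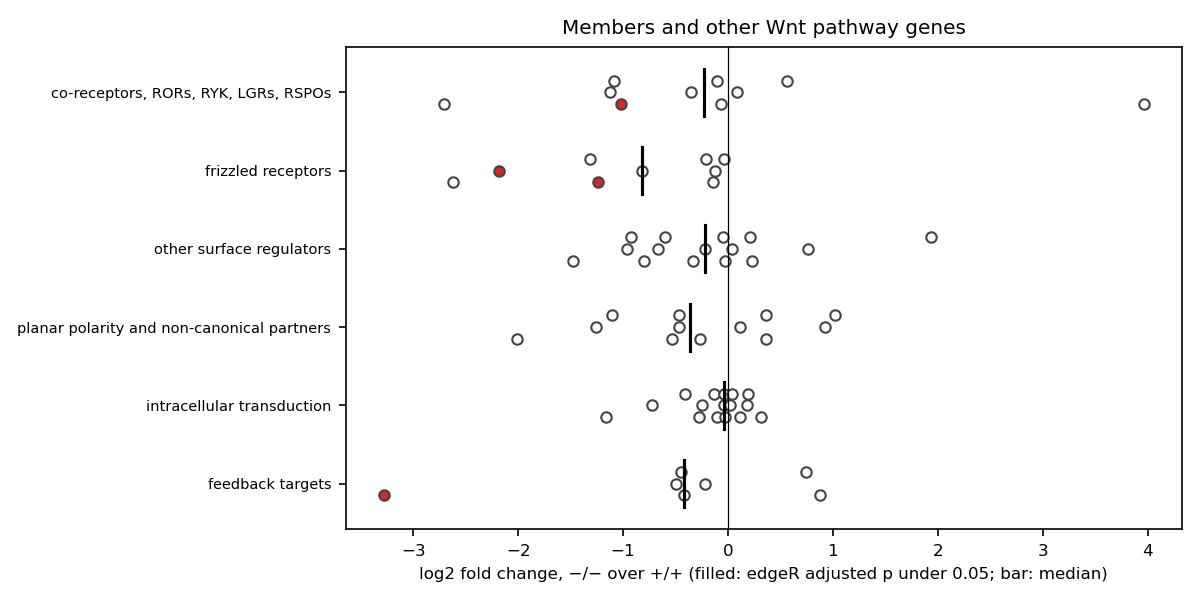
Log2 fold change of TauT-/- over TauT+/+ for the 10 genes (top row) and for the tested genes of 5 Wnt pathway lists, with filled points for an edgeR adjusted p under 0.05 and bars at the medians. All 9 frizzled points lie below 0, the nearest to it at −0.04, and the filled points are *Lrp6*, *Fzd5*, *Fzd1* and *Nkd1*.

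The genes whose levels followed each of the 10 most closely were sought by Pearson correlation of log2 CPM over the 15 libraries, among 9527 genes with a mean of at least 10 CPM. Depth followed the sex label, and the libraries of a near-identical pair may share a culture, so the values are a description. *Lrp6* was most like *Ptprm* (r = 0.938), *Boc* (0.923) and *Igsf3* (0.922), and *Lrp5* was most like *Il6st* (0.871), *Lgalsl* (0.863) and *Ubtf* (0.858). *Ror1* was nearest to *H3f3b* (0.891), *Il17ra* (0.879) and *Egr2* (0.873). *Ror2* was nearest to *Pes1* (0.896), *Cacna1c* (0.868) and *Asb6* (0.864), and *Ryk* to *Oaf* (0.904), *Kank2* (0.901) and *Matn2* (0.895). Among the R-spondin receptors, *Lgr4* followed *Arl16* (0.954), *Snn* (0.943) and *Mxd4* (0.943), *Lgr5* followed *Sgsm2* (0.939), *Sfxn3* (0.871) and *Ubtf* (0.839), and *Lgr6* followed *Thyn1* (0.880), *Pdrg1* (0.879) and *Pmepa1* (0.878). *Rspo2* was nearest to *Amotl2* (0.937), *Zfp512b* (0.915) and *Evi5l* (0.913), and *Rspo3* to *Nkd1* (0.910), *Limch1* (0.906) and *Abcc9* (0.906). Between the 10 genes themselves, the highest r was 0.810 for *Ror1* and *Rspo3*, followed by 0.762 for *Lrp5* and *Lgr5* and 0.757 for *Lrp6* and *Rspo3*, and the lowest was −0.444 for *Lrp6* and *Ror2*. The near-identical TauT+/+ pair held the highest values of *Ror1*, *Rspo3* and *Lrp6*, and the near-identical TauT-/- pair held 2 of the 3 highest values of *Lrp5* and of *Lgr5*.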

How the data were processed

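RNA of cultured MSCs was copied into cDNA with oligo-dT primers and amplified by PCR without molecular identifiers. The authors filtered reads with fastp 0.23.1, mapped them with STAR 2.7.9a to the mouse build GRCm39 (annotation GENCODE M31), and counted those on each gene with featureCounts (Subread 2.0.1), using its reverse-strand setting. The deposited values are whole-number counts that were not normalized. In the methods no strand-marking step is described, so reads of overlapping genes may not be separated. The only gene in the table whose exons overlap those of 1 of the 10 genes by symbol, *Gm48159* beside *Rspo3*, had 10 reads in all.

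The test was that of edgeR 4.0.16 under R 4.3.3 (TMM scaling, filterByExpr, quasi-likelihood test with sex label and genotype in the model), with p adjusted by the Benjamini-Hochberg method over 17204 genes at a threshold of 0.05. CPM are counts scaled by TMM library sizes. Levels per kb use exon lengths from GENCODE M39 on GRCm39, which also gave the positions. Alternatives were DESeq2 1.42.0 on the same model, voom with quality weights (limma 3.58.1), other scalings and filters, thinning to 12761107 counts, no sex term, the replicate number as a block, a macrophage covariate, each sex label alone, 13 libraries, 12 libraries and leaving out each library. The scaling of CPM behind the overlap of genotypes was varied after the data were seen. Correlations used log2(CPM + 0.5). The scripts were tested on simulated data.

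The named genes are the 10, *Slc6a6*, pathway genes that edgeR called and the 3 largest rises and falls among genes averaging at least 1 CPM, and the 3 genes most like each of the 10. The genes, lists and tests were chosen with earlier results of these data known. No source used here says which libraries came from separate animals, so p measures the spread between these libraries, and intervals of counting error were not used. Depth limits the low values, 1 read being worth 0.0521 CPM in TauT-/- female 4.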

Additional observations from a re-analysis of the deposited data

Results flagged for a closer look

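*Lgr6* in TauT-/- male 3, at 26.5 CPM, lay far above the other 3 TauT-/- male libraries at 2.19 to 2.87 CPM. On the log2 scale its gap to the nearest of them was 0.903 of the range of the group, above Dixon's critical value for a group of 4 libraries. Of 39 groups of values tested in this way 1 was marked, and chance alone would mark about 1.95. Over 9518 genes, the libraries closest to TauT-/- male 3 were TauT+/+ male 3 and TauT-/- male 2. Their spreads of log2 ratios were almost equal, 0.2668 and 0.2671. *Lgr6* was high in the first of these neighbours (38.7 CPM) and low in the second (2.87 CPM). The cause of the marked value was not tested.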

How the results depend on the processing

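The log2 fold change of *Lrp6* kept its direction under all alternatives, from −1.03 to −0.85. Its adjusted p ran from 0.00116 by DESeq2 to 0.631 by edgeR in male-labelled libraries. With each library left out the log2 fold change was −1.11 to −0.84 (edgeR adjusted p from 0.0186 to 0.113, past the threshold in 5 of 15). The number of the 10 genes called lower was 1 as reported and 0 without a filter on low counts, with the replicate block, with the macrophage covariate, under either sex label alone, in both fits to 13 libraries and without the 3 libraries with a contradicted sex label. Over all genes edgeR called 0 lower in the last 6 of these fits, so a count of 0 in those 6 says nothing about the 10 genes. Over all genes it called 42 lower without a filter and 177 with the block, against 129 as reported. The number of the 10 genes called lower ranged from 0 to 1 over the fits without 1 library. The number called higher stayed at 0 there and was 1 with DESeq2. Pathway genes called lower numbered 3 as reported, 9 with DESeq2, 7 with voom, 1 without a filter, 5 with the replicate block and 0 in the other settings named above, and 0 to 7 without 1 library (7 without TauT+/+ male 3). Those called higher numbered 2 with DESeq2 and 0 to 1 without 1 library. The genotype effect differed by sex label for 0 of the 10 genes under every alternative run. Over all genes the calls ranged from 4 to 779 lower without 1 library, against 129 as reported.

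Estimates near 0 changed sign. *Lrp5* was −0.13 with voom, −0.069 and −0.036 with 13 libraries, −0.10 without the 3 libraries, 0.60 with the macrophage covariate (same sign) and −0.022 (without TauT-/- female 1) to 0.24 without 1 library. *Ryk* was 0.23 with the macrophage covariate, and *Lgr4* was 0.039 in male-labelled libraries. *Rspo2* was 0.10 with the replicate block, 0.37 with the macrophage covariate, 0.39 in male-labelled libraries and −0.43 to 0.14 without 1 library. With 1 library left out, *Lgr5* ranged from 2.29 (without TauT-/- female 1) to 4.33, and *Rspo3* from −3.65 (without TauT-/- female 2) to −1.24 (without TauT+/+ male 1). Over the other alternatives they ranged from 1.39 to 5.15 and from −3.59 to −1.29. With at least 10 counts required in every library *Lgr5* and *Lgr6* were not tested. With CPM scaled over all genes, 0 of the 10 had every TauT-/- library below every TauT+/+ library under the male label, against 1 as reported. The difference in the log2 ratio of *Ror2* to *Ror1* was 1.25 to 2.46 and that of *Lgr5* to *Lgr4* was 1.48 to 2.65 without 1 library. The causes of these changes were not tested.

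Replicate numbers did not pair the samples by the rule used. Deviations of same-numbered libraries of a sex label correlated at −0.02 to 0.64 over 7 pairs, 6 of them over 0.1, and 11 of 14 libraries correlated best with their own number. With the replicate block, *Lrp6* had an edgeR adjusted p of 0.0513.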
